A study of Mus musculus with 48 samples.

Results

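Regional identity in the newborn mouse brain was described by setting hippocampus against prefrontal cortex in wild-type mice at postnatal day 5 (P5). The comparison used the 8 libraries, of 48 in all, whose labels give the genotype Aag WT and an age of 5 days: 4 from hippocampus and 4 from prefrontal cortex. The mice were male, and their strain is not given in the sources used here. The whole series holds 12 groups of 4 libraries, from Aag WT mice and from Aag-/- mice (called KO below), which lack a glycosylase that removes alkylated bases from DNA and is encoded by Mpg, at P5, at 6 weeks and as adults of 4 to 6 months. The same regional comparison in KO mice at P5 (8 libraries) and in WT mice at the later ages (8 libraries each) is used below only to show where WT P5 stands. No label ties a replicate number to an animal, so p-values measure the spread between these libraries.

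Both tissues are parts of the pallium, the dorsal wall of the embryonic forebrain. The hippocampus arises at its medial edge, beside the cortical hem, a signalling centre that secretes Wnt and bone morphogenetic proteins, and it holds the pyramidal fields CA1 to CA3 and the dentate gyrus, whose granule neurons continue to be born after birth. The prefrontal cortex lies at the frontal pole of the neocortex, where fibroblast growth factors and retinoic acid act on area identity, and it has the layered neurons of neocortex: intratelencephalic neurons of the upper layers, and output neurons of the deep layers.

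Levels are given as CPM, the count scaled to the library's normalised total, in the order of replicates 1 to 4. A level in CPM is not corrected for transcript length and is compared only within a gene. Fold changes are on the log2 scale, hippocampus over prefrontal cortex, so that a positive value means higher in hippocampus. A gene is called when its edgeR adjusted p is under 0.05. In bulk tissue, fewer cells of a type and less RNA per cell cannot be told apart.

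The 8 libraries held 24039024 to 31484242 counts, so that 3 counts, taken as the floor of detection, corresponded to 0.0864 to 0.111 CPM. Mitochondrial transcripts took 8.65% to 12.5% of the counts. The first principal component held 69.0% of the variance and separated the tissues. For Mpg the WT hippocampus libraries gave 8.93, 7.64, 8.26 and 7.20 CPM and the WT prefrontal libraries 8.71, 7.46, 7.07 and 7.66 CPM, against means of 1.36 ± 0.318 and 1.29 ± 0.146 CPM (SD, n = 4 each) in the same tissues of KO mice. The tissue labels were checked against defining markers. Prox1, of dentate granule cells, was higher in every hippocampus library than in any prefrontal library, and Rorb, of neocortical layer 4, the other way round (values below). Prefrontal replicate 1 stood apart: the summed level of 18 striatal neuron markers was 1226, 584, 665 and 559 CPM in the prefrontal libraries against 573, 519, 550.2 and 528 in hippocampus. Prefrontal replicate 3 was lowest in markers of olfactory bulb and septum, at 256, 305, 111 and 287 CPM in the 4 prefrontal libraries. List counts that moved by over 1.5 times without either library are given with and without it, and smaller moves are mostly left out. The kit marks strand but its use in counting is not stated, so for the 35 of the 83 genes described most fully that overlap an antisense gene (among them Zbtb20, Prox1, Emx2 and Mpg) reads of both cannot be told apart.

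Of 16799 genes tested, 4408 (26.2%) were called, 2455 (14.6%) higher in hippocampus and 1953 (11.6%) higher in prefrontal cortex. At least a doubling was seen in 1434 of the called genes (8.54% of those tested), 982 (5.85%) in favour of hippocampus and 452 (2.69%) in favour of prefrontal cortex. The 4 values of each tissue did not overlap for 4897 genes (29.2%), and for 88.3% of the called genes. The median log2 fold change over all tested genes was 0.01. Each list count below is to be read beside the shares of 14.6% and 11.6%. The gene lists and their members were chosen with earlier results of these data known. Their counts therefore describe the lists and are not a test of regional identity.

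**Figure D1:**
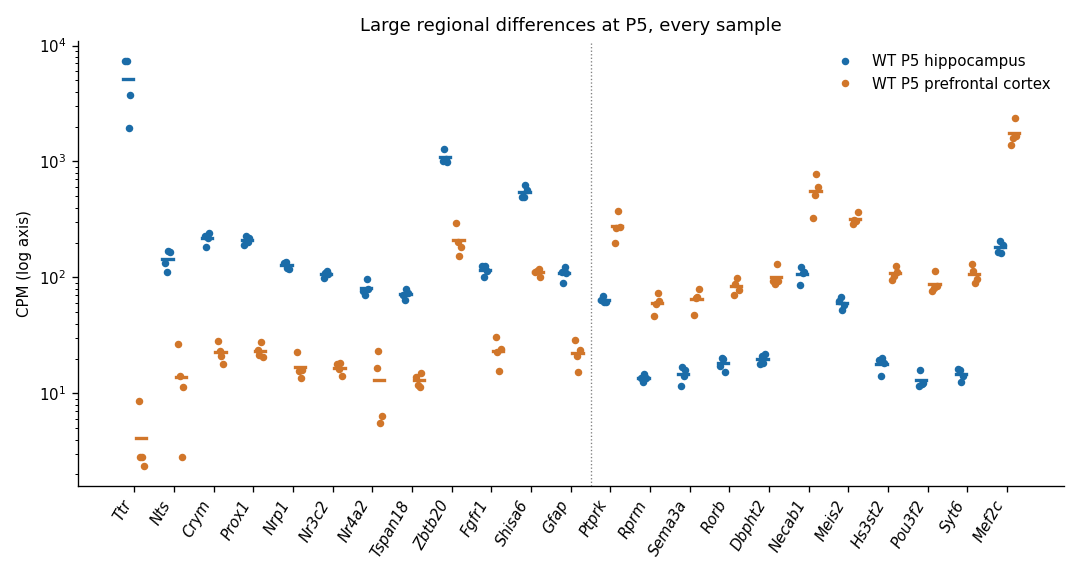
CPM on a log axis for 12 genes higher in hippocampus and 11 higher in prefrontal cortex with large fold changes (not a full ranking), taken from called genes with no overlap and a mean log2 CPM of at least 5. Points are the 4 libraries of WT P5 hippocampus (blue) and prefrontal cortex (orange), bars are means, and the dotted line divides genes higher in hippocampus from genes higher in prefrontal cortex. Ttr spans the widest gap of those plotted, from 1932 CPM or more in hippocampus to 8.59 or less in prefrontal cortex.

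Most listed transcription factors that pattern the medial pallium were called higher in hippocampus. Of 18 hippocampal regulators, 15 were called higher in hippocampus and 0 in prefrontal cortex, where 14.6% and 11.6% of all genes were, and the median log2 fold change was 1.0. Leaving out prefrontal replicate 1 gave 14 and 1, and leaving out any other library gave 12 to 15 and 0. Prox1, the homeobox factor that sets dentate granule cell identity, gave 190.3, 226, 201 and 221 CPM in the hippocampus libraries and 23.5, 21.4, 27.5 and 20.7 CPM in the prefrontal ones. No values overlapped, and the log2 fold change was 3.21 ± 0.11 (SE, as after ± in all fold changes; edgeR adjusted p = 2.78e-08). Zbtb20, a zinc-finger repressor needed for CA1 identity, stood at 1012, 1277, 1053 and 989 CPM against 297, 203, 153 and 183 CPM, with replicate 1 the highest of the prefrontal libraries. Its log2 fold change was 2.41 ± 0.19 (edgeR adjusted p = 3.37e-06). The LIM-homeobox gene Lhx9 stood at 26.3, 29.7, 27.1 and 29.4 CPM against 0.981, 2.10, 2.70 and 3.14 CPM, a log2 fold change of 3.70 ± 0.24. Nr3c2, the mineralocorticoid receptor, stood at 99.5, 108, 114 and 106 CPM against 17.8, 16.2, 18.4 and 14.04 CPM, and its range within each tissue was narrow beside the gap between them (2.73 ± 0.10).

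Selector genes of the cortical primordium differed less. Emx2, a homeobox gene graded towards the medial and caudal cortex, stood at 24.1, 20.3, 20.1 and 25.3 CPM against 6.66, 7.26, 6.81 and 7.22 CPM (1.72 ± 0.11 on the log2 scale). The orphan nuclear receptor Nr2f2 stood at 87.3, 115, 105 and 87.04 CPM against 27.9, 26.9, 33.5 and 38.1 CPM (1.68 ± 0.13). Lhx2, which keeps pallium from turning into hem, stood at 133, 108, 121 and 143 CPM against 58.5, 51.9, 95.5 and 57.1 CPM, with prefrontal replicate 3 nearest to hippocampus (0.98 ± 0.17). Dmrta2, a patterning gene next to the hem, was low in both tissues at 1.60, 1.80, 1.47 and 1.93 CPM against 0.595, 0.461, 0.407 and 0.569 CPM (1.77 ± 0.25). All 4 were called and none of their values overlapped between tissues. Neurod1, which drives granule neuron differentiation, stood at 138, 132, 129 and 159 CPM against 17.8, 39.5, 45.3 and 52.2 CPM (1.89 ± 0.24). The members not called were the pan-pallial factors Emx1 (0.17 ± 0.16), Neurod2 (0.15 ± 0.13) and Neurod6 (-0.35 ± 0.20).

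Upstream sequences of 6 genes with large differences were searched for 2 motifs, and the windows that hold one are printed, of a ligand, a dentate factor and a layer gene. They were picked for the match: of the 10 windows of these genes, the other 7 (those of Zbtb20, Nr3c2 and Rorb, and all later windows of Prox1 and Syt6) hold neither motif. They are the 250 bases before an annotated start in RefSeq (GRCm38.p6), 5′ to 3′ on the gene's strand. Capitals mark TAATTA, a homeodomain core motif that reads the same on both strands, or CAGATG, an E-box of neurogenic bHLH factors that was searched on both strands. Of 32851 such windows of 250 bases in the table, 4.84% hold TAATTA and 14.4% hold CAGATG on either strand. Among the 15339 windows of tested genes the shares are 2.73% and 10.4%, among the 907 of genes at least doubled in hippocampus 4.96% and 13.0%, and among the 393 of genes at least doubled in prefrontal cortex 6.62% and 13.5%. These shares were not tested, and a match is a description only. The motifs do not overlap each other. Wnt8b lies at chr19:44493222-44493471 (plus strand) with TAATTA at position -36 from the start. Prox1 lies at chr1:190170828-190171077 (minus strand), the first of its 2 windows in the table, with CAGATG at position -179. Syt6, a layer 6 marker, lies at chr3:103574995-103575244 (plus strand), the first of its 3 windows, with TAATTA at position -224.
Wnt8b: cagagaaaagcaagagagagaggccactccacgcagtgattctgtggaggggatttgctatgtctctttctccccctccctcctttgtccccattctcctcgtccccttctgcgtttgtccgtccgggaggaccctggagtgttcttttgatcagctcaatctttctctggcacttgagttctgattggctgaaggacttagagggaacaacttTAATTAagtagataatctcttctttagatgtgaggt
Prox1: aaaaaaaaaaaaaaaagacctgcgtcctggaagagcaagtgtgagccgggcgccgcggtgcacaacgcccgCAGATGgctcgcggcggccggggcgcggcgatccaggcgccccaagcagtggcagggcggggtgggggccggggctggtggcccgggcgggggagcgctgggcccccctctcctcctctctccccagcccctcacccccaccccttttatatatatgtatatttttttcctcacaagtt
Syt6: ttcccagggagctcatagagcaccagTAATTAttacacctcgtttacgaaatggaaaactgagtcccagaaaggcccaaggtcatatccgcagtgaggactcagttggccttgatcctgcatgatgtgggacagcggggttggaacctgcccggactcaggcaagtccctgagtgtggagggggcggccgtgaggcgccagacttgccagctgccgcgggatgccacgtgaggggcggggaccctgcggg

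Field markers of the adult hippocampus divided at P5 into those already higher in hippocampus and those not. In the dentate gyrus list 7 of 16 genes were called higher in hippocampus and 1 in prefrontal cortex, with a median of 0.34. Beside Prox1, the desmosomal gene Dsp stood at 4.66, 5.88, 4.33 and 5.15 CPM against 0.833, 1.35, 0.666 and 1.86 CPM (2.11 ± 0.28) and the lactase gene Lct at 3.58, 2.28, 2.90 and 2.89 against 0.476, 0.864, 0.999 and 0.748 CPM (1.96 ± 0.25). C1ql2, a secreted synaptic organiser of mossy fibres, stood at 0.814, 0.795, 0.787 and 1.05 against 0.446, 0.0576, 0.111 and 0.180 CPM, prefrontal replicate 2 with 2 counts being under the floor and replicate 3 at it, so that its fitted log2 fold change (2.12 ± 0.47) is uncertain in size. The last 3 were low in both tissues and called. Tdo2, a tryptophan dioxygenase used as an adult granule cell marker, was the member called higher in prefrontal cortex (-1.23 ± 0.38), and that call was lost without any of 5 libraries (hippocampus replicates 1 and 3, prefrontal replicates 2, 3 and 4), where the count was 0. The list gave 6 and 2 without prefrontal replicate 1.

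CA1 markers were split. Of 9 tested of 10, 3 were called higher in hippocampus and 2 in prefrontal cortex (median -0.02), among the latter Mpped1, which neocortical neurons also express (-1.44 ± 0.13). Fibcd1, an acetyl-binding receptor, stood at 25.6, 21.7, 31.05 and 18.7 CPM against 4.01, 1.79, 0.925 and 2.46 CPM (3.42 ± 0.32). Spink8, a protease inhibitor, stood at 1.04, 1.45, 0.930 and 1.36 CPM in hippocampus and was at 1 or 2 counts in each prefrontal library, under the floor of 3. In the CA3 list 4 of 10 genes were called higher in hippocampus and 0 in prefrontal cortex (median 0.18). The tetraspanin gene Tspan18 stood at 70.3, 63.8, 79.2 and 74.1 CPM against 13.9, 11.9, 11.5 and 15.1 CPM (2.49 ± 0.11). Grik4, a kainate receptor subunit of CA3 synapses, stood at 35.6, 33.98, 36.9 and 33.95 CPM against 15.6, 12.6, 17.5 and 13.4 CPM (1.29 ± 0.11). Of 8 CA2 markers 1 was called in each direction, near the shares of all genes (14.6% and 11.6%). Stard5 was called higher in hippocampus (2 calls without prefrontal replicate 1). Vcan was called higher in prefrontal cortex (2 calls without hippocampus replicate 4 or prefrontal replicate 1 or 3).

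Other genes with a large rise in hippocampus came from several systems. The neuropeptide gene Nts stood at 134, 111, 170.2 and 166 CPM against 26.9, 14.2, 2.85 and 11.3 CPM, the prefrontal values spreading more widely than those of hippocampus (3.41 ± 0.45). Crym, a thyroid hormone-binding protein, stood at 229, 183, 221 and 242 CPM against 28.3, 23.4, 20.9 and 18.1 CPM (3.30 ± 0.14). Crym is in the layer 5 and layer 6 lists here, yet every hippocampus value was above every prefrontal value. Nr4a2, a nuclear receptor of subplate and claustrum neurons, stood at 75.7, 70.7, 97.9 and 79.4 CPM against 16.7, 23.3, 5.59 and 6.41 CPM (2.66 ± 0.37). Fgfr1, a fibroblast growth factor receptor, stood at 125, 100.4, 125 and 113 CPM against 30.7, 22.8, 15.7 and 23.9 CPM (2.35 ± 0.17). Shisa6, an auxiliary subunit of AMPA receptors, stood at 497, 498, 623 and 569.8 CPM against 112, 113, 117 and 99.9 CPM (2.34 ± 0.10). For each of these the tissues did not overlap, and the largest of the 12 adjusted p values in this direction was 0.000236 (edgeR).

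Genes of the upper neocortical layers and of layer 6 were called higher in prefrontal cortex more often than in hippocampus, and those of layer 5 and subplate were mostly not called. Of 15 upper layer genes, 12 were called higher in prefrontal cortex and 3 in hippocampus (median -0.90). The 3 were Mdga1, Calb1 and Lhx2, and Calb1 and Lhx2 also stand in hippocampal lists. Over all genes 11.6% were called higher in prefrontal cortex and 14.6% in hippocampus. The POU-domain gene Pou3f2, which acts in upper layer neuron production, stood at 75.9, 80.4, 113 and 84.6 CPM in prefrontal cortex and 11.5, 15.8, 12.2 and 12.3 CPM in hippocampus. The difference was -2.73 ± 0.14 on the log2 scale (edgeR adjusted p = 1.78e-07). Rorb, the nuclear receptor of layer 4, stood at 70.6, 87.2, 99.2 and 77.5 CPM against 17.3, 20.3, 19.8 and 15.3 CPM (-2.16 ± 0.12). Cux2, a homeobox gene of layers 2 to 4, stood at 78.5, 84.2, 108 and 82.8 CPM against 31.01, 29.2, 27.7 and 28.5 CPM (-1.56 ± 0.10). In Pou3f2, Rorb and Cux2 prefrontal replicate 3 was the highest library.

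Layer 6 genes were called higher in prefrontal cortex for 7 of 12 members and higher in hippocampus for 3 (median -0.83), the 3 being Crym, Zfpm2 and Tshz2. Syt6, a synaptotagmin of corticothalamic neurons, stood at 130.0, 114, 88.7 and 96.8 CPM against 16.4, 15.97, 12.6 and 14.1 CPM (-2.83 ± 0.14). Rprm, a marker of deep layer and subplate neurons, stood at 46.9, 58.9, 73.4 and 62.2 CPM against 13.6, 12.7, 14.7 and 13.6 CPM (-2.11 ± 0.12). Tbr1, a T-box factor of early-born neurons, stood at 280.5, 408, 427 and 424 CPM against 153, 138, 170.0 and 171 CPM, with replicate 1 the lowest prefrontal library (-1.25 ± 0.13). Foxp2, a forkhead factor of layer 6 and also of striatum, stood at 73.1, 31.4, 26.01 and 22.8 CPM against 5.31, 6.84, 4.33 and 5.51 CPM, and here replicate 1 was the highest (-2.77 ± 0.34). Foxp2 remained called without that library (edgeR adjusted p = 4.97e-07). Of 12 layer 5 genes 3 were called higher in prefrontal cortex and 1, Crym, in hippocampus (median -0.01), where leaving out hippocampus replicate 2 or prefrontal replicate 1, 3 or 4 gave 2. Bcl11b, a zinc-finger factor shared by subcortical projection neurons and hippocampal neurons, was not called, at 203, 149.7, 109.8 and 154 CPM in prefrontal cortex and 152, 140.4, 174 and 177 CPM in hippocampus. Subplate genes were called 2 in each direction of 10, and Cplx3, a complexin of subplate neurons, stood at 5.68, 4.21, 2.63 and 1.23 CPM against 0.358, 0.484, 0.250 and 0.331 CPM (-3.22 ± 0.45).

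Other genes with a large rise in prefrontal cortex included Mef2c, an activity-regulated factor of cortical neurons, at 1398, 1590.0, 2385 and 1649 CPM against 167, 208, 164 and 191 CPM (-3.23 ± 0.17). Necab1, a neuronal calcium-binding protein, stood at 326, 516, 782 and 601 CPM against 85.6, 124, 109 and 111 CPM (-2.33 ± 0.22). The heparan sulfate sulfotransferase Hs3st2 stood at 95.03, 103, 127 and 111 CPM against 19.3, 14.04, 20.1 and 18.2 CPM (-2.57 ± 0.12). Ptprk, a receptor tyrosine phosphatase, stood at 198, 268, 371 and 274 CPM against 63.8, 68.7, 60.9 and 61.9 CPM (-2.08 ± 0.15), and Dbpht2 at 92.3, 88.4, 130.0 and 92.6 against 17.98, 20.9, 18.2 and 21.8 CPM (-2.31 ± 0.13). Prefrontal replicate 3 was the highest library for all 5, and hippocampus values lay below every prefrontal value. The largest adjusted p among the 11 genes plotted in this direction was 1.44e-05 (edgeR).

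**Figure D2:**
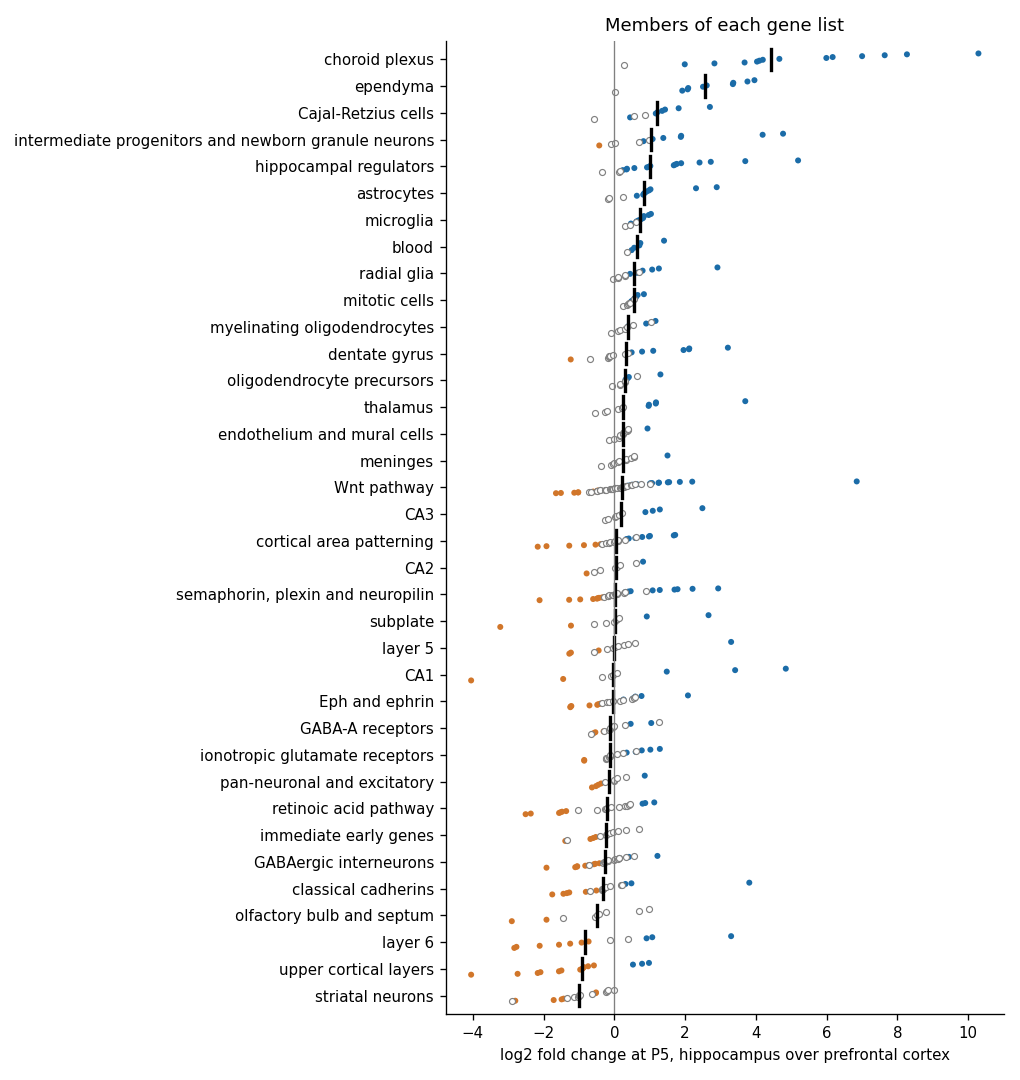
Log2 fold change at P5 (hippocampus over prefrontal cortex) of every tested member of each gene list. Filled points were called (blue higher in hippocampus, orange higher in prefrontal cortex), open points were not, and black bars are list medians, from 4.43 for choroid plexus to -1.0 for striatal neurons.

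Genes that make, break down or answer to retinoic acid were called in both directions. With every library kept, the hippocampus count was near the share of all genes (14.6%). The share of all genes called higher in prefrontal cortex was 11.6%. Of 20 tested of 22 genes of this pathway, 6 were called higher in prefrontal cortex and 3 in hippocampus (median -0.22). These became 6 and 7 without prefrontal replicate 1. Aldh1a3, a retinoic acid-synthesising dehydrogenase, stood at 6.30, 3.11, 2.41 and 2.25 CPM in prefrontal cortex and 0.391, 1.07, 0.537 and 0.422 CPM in hippocampus (-2.51 ± 0.41), highest in the library with high striatal markers and called without it (edgeR adjusted p = 0.000472). Cyp26b1, which degrades retinoic acid, stood at 23.3, 47.4, 78.2 and 58.2 CPM against 21.2, 12.7, 24.1 and 20.5 CPM, and prefrontal replicate 1 overlapped hippocampus (-1.36 ± 0.29). The homeobox cofactor gene Meis2 stood at 286, 310.2, 308 and 365 CPM against 62.4, 67.8, 51.9 and 58.3 CPM (-2.36 ± 0.11), and the synaptic organiser gene Cbln2 at 33.7, 63.7, 78.5 and 71.4 against 19.5, 19.4, 25.00 and 22.6 CPM (-1.48 ± 0.21). Called higher in hippocampus were the receptor Rxra (1.13 ± 0.16) and the enzymes Aldh1a1 (0.87 ± 0.18) and Rdh10 (0.80 ± 0.11).

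Genes known for grading cortical areas were called in both directions, 8 higher in hippocampus and 6 in prefrontal cortex of 24 tested of 26 (median 0.06). The shares over all genes were 14.6% and 11.6%. Higher in prefrontal cortex was Sp8, a zinc-finger factor of the rostral pallium and of bulb-bound interneurons, at 12.5, 15.4, 3.29 and 15.2 CPM against 3.39, 3.18, 2.68 and 2.77 CPM (-1.92 ± 0.37). Its level in prefrontal replicate 3 lay within the hippocampus range. Rorb and Cdh6, listed here too, went the same way. The members in the other direction included Emx2, Nr2f2, Lhx2 and the growth factor receptor Fgfr3 (1.01 ± 0.11).

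Wnt pathway genes, among them ligands, receptors and a nuclear effector, were called in both directions, in prefrontal cortex at near the share of all genes. Over all genes 14.6% were called higher in hippocampus and 11.6% in prefrontal cortex. Of 51 tested of 59 genes, 14 were called higher in hippocampus and 8 in prefrontal cortex (median 0.21). Without prefrontal replicate 1 these were 17 and 10, and without hippocampus replicate 1, 2 or 4 or prefrontal replicate 4 the prefrontal count was 5. Wnt8b, the ligand of the hem and hippocampal primordium whose upstream sequence is printed above, stood at 1.95, 2.45, 2.36 and 2.02 CPM in hippocampus (60 to 71 counts a library) and at 0 or 1 counts in each prefrontal library, under the floor. The ligand Wnt2 stood at 1.40, 1.11, 1.50 and 2.53 CPM against 0.506, 0.317, 0.222 and 0.389 CPM (2.20 ± 0.35). The receptor Fzd1 stood at 27.01, 29.3, 24.7 and 24.4 CPM against 10.1, 9.07, 7.10 and 10.5 CPM (1.55 ± 0.13), and the receptor Fzd7 at 17.3, 19.9, 19.5 and 19.3 against 6.48, 5.33, 4.44 and 10.96 CPM (1.51 ± 0.22). Rspo3, a secreted enhancer of Wnt signalling, stood at 8.99, 10.3, 9.76 and 11.6 CPM against 4.58, 5.13, 5.25 and 4.94 CPM (1.07 ± 0.12). Lef1, the nuclear effector that the dentate gyrus needs, stood at 16.9, 13.4, 15.6 and 16.5 CPM against 7.64, 6.83, 6.44 and 10.6 CPM (1.02 ± 0.16). In the prefrontal direction the extracellular modulator Dkk2 stood at 2.23, 2.91, 4.11 and 4.49 CPM against 0.749, 0.830, 1.22 and 1.45 CPM (-1.65 ± 0.28). Axin2, a general target of the pathway, was not called (0.28 ± 0.13).

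Axon guidance ligands and their receptors were called in both directions. Beside the counts that follow, 14.6% of all genes were called higher in hippocampus and 11.6% in prefrontal cortex. Of 31 semaphorin, plexin and neuropilin genes, 9 were called in each direction (median 0.02). The neuropilin receptors were both higher in hippocampus: Nrp1 stood at 134, 136, 120.3 and 118 CPM against 22.9, 15.6, 13.7 and 15.9 CPM (2.94 ± 0.15), and Nrp2 at 196, 215, 212 and 224 against 75.97, 71.6, 20.6 and 98.1 CPM, lowest in prefrontal replicate 3 (1.70 ± 0.33). Sema3a, a repellent ligand of Nrp1, was higher in prefrontal cortex at 47.9, 66.3, 67.3 and 79.7 CPM against 11.5, 17.04, 14.1 and 16.1 CPM (-2.11 ± 0.16). Sema3e, a ligand of Plxnd1, was higher in hippocampus at 43.4, 43.01, 41.4 and 46.4 CPM against 10.9, 10.03, 7.96 and 9.67 CPM (2.21 ± 0.10), whereas Plxnd1 was higher in prefrontal cortex (-0.96 ± 0.12). Of 21 tested of 22 Eph and ephrin genes 5 were called higher in hippocampus and 7 in prefrontal cortex (median -0.05), and the hippocampus count was 3 without hippocampus replicate 1 or 3 or prefrontal replicate 2 or 3. The receptor Epha6 stood at 64.9, 69.97, 74.5 and 77.8 CPM against 17.8, 19.4, 16.2 and 16.2 CPM (2.08 ± 0.09), and the ligand Efnb2 at 60.7, 61.95, 66.4 and 64.1 against 116, 150.1, 149 and 196 CPM (-1.24 ± 0.13). Of 19 cadherins 6 were called higher in prefrontal cortex and 3 in hippocampus (median -0.32). Cdh13, an anchored cadherin, stood at 376, 461, 470.3 and 499 CPM in prefrontal cortex against 146, 119, 139 and 118 CPM (-1.75 ± 0.11), and Cdh6 at 82.6, 90.00, 99.9 and 104 against 34.4, 39.00, 36.8 and 41.3 CPM (-1.27 ± 0.09).

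Receptor subunits were called in either direction, in shares of which some were near those of all genes (14.6% higher in hippocampus and 11.6% in prefrontal cortex). Of 17 tested of 18 ionotropic glutamate receptor genes 5 were called higher in hippocampus and 2 in prefrontal cortex (median -0.11). Gria1, an AMPA receptor subunit, stood at 418, 415, 417 and 402 CPM against 215, 230.4, 192 and 199 CPM (1.02 ± 0.08). Grin2a, the NMDA subunit that rises with maturation, stood at 74.2, 90.2, 85.9 and 94.5 CPM against 40.7, 49.5, 69.8 and 46.97 CPM (0.78 ± 0.14). The AMPA subunit Gria2 (-0.14 ± 0.12) and the obligatory NMDA subunit Grin1 (-0.12 ± 0.09) were not called. Of 15 tested of 19 GABA-A receptor genes 2 were called higher in hippocampus and 3 in prefrontal cortex (median -0.11). The 2 were Gabra2, at 116, 139.6, 132 and 148 CPM against 65.4, 67.5, 62.4 and 71.1 CPM (1.04 ± 0.09), and Gabra5, whose values overlapped at 368, 416, 411 and 419 CPM against 241, 296, 377 and 290.3 CPM (0.46 ± 0.12).

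Genes of progenitors and newborn neurons were called higher in hippocampus for part of each list. Of 12 genes of intermediate progenitors and newborn granule neurons 7 were called higher in hippocampus and 1, Sox4, in prefrontal cortex (median 1.04). The proneural bHLH gene Neurog2 stood at 5.18, 4.15, 3.72 and 4.43 CPM against 0.238, 0.202, 0.296 and 0.240 CPM (7 or 8 counts a prefrontal library), a log2 fold change of 4.19 ± 0.23 (edgeR adjusted p = 2.42e-07). Neurod4, a related bHLH gene, stood at 5.96, 8.26, 5.33 and 7.44 CPM against 0.327, 0.173, 0.407 and 0.120 CPM (4.77 ± 0.30). Eomes, the T-box factor of intermediate progenitors and of olfactory bulb neurons, was not called: it gave 14.2, 12.7, 10.3 and 13.8 CPM for hippocampus against 1.93, 13.5, 0.0740 and 10.6 CPM. Prefrontal replicates 2 and 4 reached the hippocampus level in Eomes and replicate 3 was under the floor. Replicate 3 was also the lowest prefrontal library in Sp8 and in the olfactory bulb list, which itself holds Eomes and Sp8. The part of bulb tissue in these values was not tested. Among radial glia genes 6 of 12 were called higher in hippocampus and 0 in prefrontal cortex (median 0.54). Hopx, a marker of radial glia and of dentate stem cells, stood at 56.1, 36.8, 46.96 and 43.1 CPM against 6.51, 6.19, 6.44 and 5.72 CPM (2.92 ± 0.13). Of 15 mitotic genes 9 were called higher in hippocampus and 0 in prefrontal cortex, with a median of 0.54. This count was 4 without hippocampus replicate 1, 2 without hippocampus replicate 4, 2 without prefrontal replicate 2 and 13 without prefrontal replicate 1. The centromere protein gene Cenpf stood at 13.03, 13.3, 12.4 and 16.6 CPM against 10.1, 7.75, 6.51 and 7.45 CPM (0.84 ± 0.15).

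Cajal-Retzius cells, the reelin-secreting neurons of the marginal zone that collect along the hippocampal fissure, were represented by 10 genes, of which 7 were called higher in hippocampus and 0 in prefrontal cortex (median 1.20; 1 in prefrontal cortex without its replicate 3). Trp73, a p53 family factor of these cells, stood at 13.9, 11.4, 13.4 and 9.88 CPM against 2.97, 3.31, 3.59 and 4.25 CPM (1.82 ± 0.15). The bHLH gene Nhlh2 stood at 17.1, 19.6, 17.6 and 18.6 CPM against 1.67, 2.77, 3.18 and 3.92 CPM (2.70 ± 0.20). Ndnf, a secreted factor of marginal zone neurons, stood at 93.04, 131, 98.5 and 122 CPM against 30.00, 57.4, 50.3 and 58.4 CPM (1.22 ± 0.19). Reln itself, which interneurons also make, stood at 256, 311, 285 and 289 CPM against 176, 226, 228 and 232 CPM, a smaller difference without overlap (0.45 ± 0.10).

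GABAergic interneuron genes were called higher in prefrontal cortex for 9 of 25 members and in hippocampus for 2 (median -0.27). The counts were 10 and 4 without prefrontal replicate 1. The 4 Dlx genes of migrating interneurons were among the 9, with log2 fold changes from -1.10 ± 0.25 for Dlx6 to -0.82 ± 0.18 for Dlx1 (values of Dlx1, Dlx2 and Dlx5 overlapped between tissues), while the GABA-synthesising enzymes Gad1 (0.13 ± 0.19) and Gad2 (0.02 ± 0.26) were not called. Cck, a neuropeptide of interneurons and of pyramidal cells, was one of the pair called higher in hippocampus, at 215, 127, 206 and 193 CPM against 60.6, 86.2, 102 and 78.3 CPM (1.22 ± 0.17).

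Striatal markers at WT P5 moved with 1 prefrontal library. Of 18 genes 6 were called higher in prefrontal cortex and 0 in hippocampus (median -1.0), and without prefrontal replicate 1 the counts were 4 and 3. Six3, a homeobox factor of striatal precursors, stood at 21.8, 0.864, 0.111 and 0.120 CPM in prefrontal cortex against 2.41, 2.87, 1.93 and 2.98 CPM in hippocampus, and the neuropeptide gene Tac1 at 57.7, 14.7, 11.3 and 10.7 against 21.9, 21.4, 21.4 and 26.96 CPM. In both genes replicate 1 was above the other prefrontal libraries by a wide margin. Without it Six3 (with 3 counts in prefrontal replicate 3, at the floor) and Tac1 changed sign, to 2.77 and 0.94, and both were then called (edgeR adjusted p = 0.00113 and 0.000188). The dopamine receptor gene Drd1 stood at 30.4, 17.1, 13.1 and 11.05 CPM against 6.16, 5.57, 5.08 and 4.55 CPM (-1.71 ± 0.28) and remained called without that library (edgeR adjusted p = 6.38e-05). In KO prefrontal libraries at P5 the summed striatal level ranged from 567 to 1156 CPM. In older WT mice 15 of 17 tested striatal genes were called higher in prefrontal cortex at 6 weeks and 10 of 17 at 4 to 6 months. None was called higher in hippocampus at those ages. Olfactory bulb and septum markers gave 2 calls in prefrontal cortex and 0 in hippocampus of 9 tested of 11, and 6 and 0 without prefrontal replicate 3. Without prefrontal replicate 1 they were 3 and 1, and without hippocampus replicate 4 the prefrontal count was 1.

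**Figure D3:**
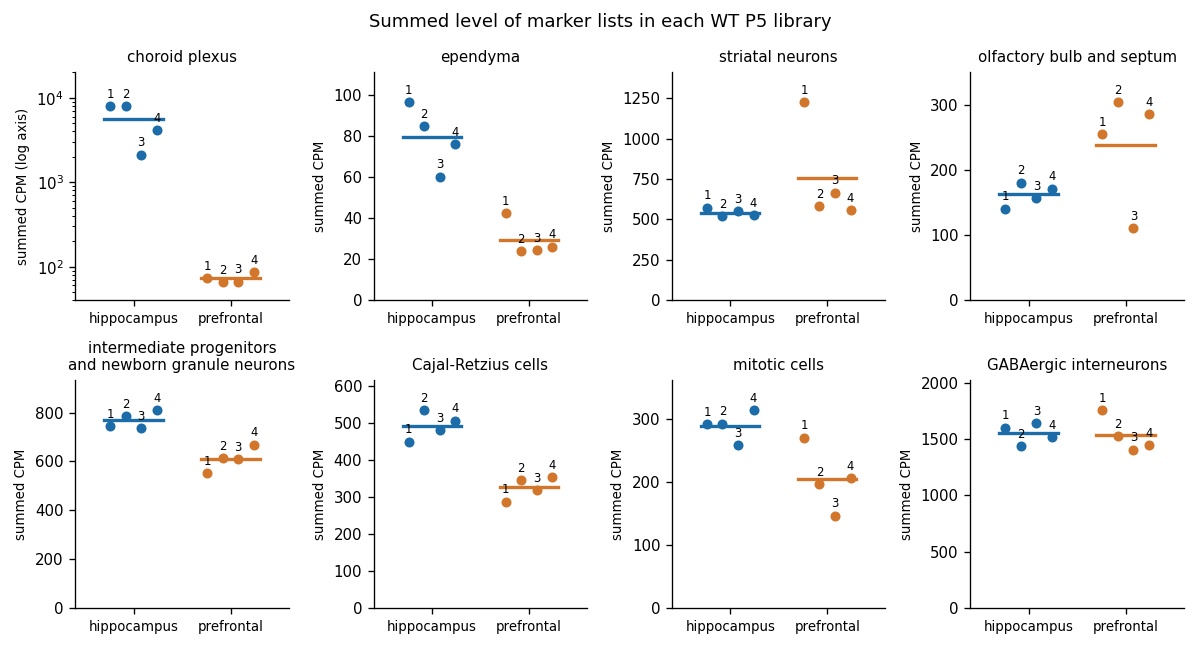
Summed CPM of 8 marker lists in each WT P5 library, with a log axis for choroid plexus only. Points carry the replicate number and bars are means. Choroid plexus spans 2132 to 7973 CPM across hippocampus libraries, and striatal markers reach 1226 CPM in prefrontal replicate 1 against 559 to 665 in the other prefrontal libraries.

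Choroid plexus and ependyma, the epithelia that line the ventricle beside the hippocampus, gave the largest list medians. Of 14 choroid plexus genes 13 were called higher in hippocampus and 0 in prefrontal cortex, with a median of 4.43. Their summed level was 7952, 7973, 2132 and 4147 CPM across hippocampus against 72.9, 65.5, 66.5 and 86.6 CPM. Ttr, the thyroid hormone carrier transthyretin, made up most of it at 7374, 7344, 1932 and 3761 CPM against 8.59, 2.85, 2.81 and 2.37 CPM (10.29 ± 0.63). Hippocampus replicate 3 was the lowest and replicates 1 and 2 nearly equal. In KO hippocampus at P5 the summed level ranged from 59.8 to 2081 CPM. Of 10 ependymal genes 9 were called higher in hippocampus and 0 in prefrontal cortex (median 2.56), Foxj1, the regulator of motile cilia, standing at 15.6, 11.8, 8.62 and 7.62 CPM against 4.88, 1.33, 0.518 and 1.02 CPM (2.51 ± 0.51). The part of attached ventricular tissue in any other hippocampus gene was not tested.

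Astrocyte and microglial genes were called higher in hippocampus and none in prefrontal cortex. Of 12 astrocyte genes 9 were called higher in hippocampus and 0 in prefrontal cortex (median 0.85). Gfap, the intermediate filament of astrocytes and dentate stem cells, stood at 111, 90.3, 123 and 109 CPM against 29.2, 21.03, 15.2 and 23.9 CPM (2.31 ± 0.17). Of 12 microglial genes 9 were called higher in hippocampus and 0 in prefrontal cortex (median 0.72), among them the growth factor receptor Csf1r at 29.8, 22.6, 26.3 and 23.4 CPM against 17.7, 14.6, 8.44 and 17.7 CPM (0.83 ± 0.19). Oligodendrocyte precursor genes gave 4 calls in hippocampus of 10 and myelin genes 3 of 10 tested of 11, with 0 in prefrontal cortex for each. The myelin count was 1 without hippocampus replicate 1, 2 or 4 or prefrontal replicate 2, 3 or 4. Blood genes gave 5 of 6 in hippocampus (their globins are near-identical pairs), but 0 without hippocampus replicate 1 or 2 or prefrontal replicate 2 or 4, 1 without prefrontal replicate 3 and 2 without hippocampus replicate 4. Endothelial and mural genes gave 1 of 12 in hippocampus (2 without prefrontal replicate 1 and 4 without prefrontal replicate 4). Meningeal genes also gave 1 of 12 in hippocampus (6 without prefrontal replicate 4). Over all genes 14.6% were called higher in hippocampus. Thalamic markers gave 5 of 11 tested of 12 in hippocampus, but Lhx2, Lhx9 and Calb2 among them stand in other lists, and 0 in prefrontal cortex (1 without hippocampus replicate 2 or prefrontal replicate 3). Of 10 general neuronal genes 4 were called higher in prefrontal cortex and 1, Camk2a, in hippocampus (2 without prefrontal replicate 2), and of 13 immediate early genes 4 were called higher in prefrontal cortex (2 without hippocampus replicate 1 or 2 or prefrontal replicate 4) and 0 in hippocampus (1 without prefrontal replicate 1 or 3).

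The regional contrast was measured again in KO mice at P5, which share no library with the WT comparison. The summed striatal markers ranged from 567 to 1156 CPM in KO prefrontal libraries and from 527 to 598 CPM in KO hippocampus. High striatal markers were therefore seen in prefrontal cortex of both genotypes, and their part in the shared signs was not tested. There 2859 of 16563 genes (17.3%) were called, 1551 (9.36%) higher in hippocampus and 1308 (7.9%) in prefrontal cortex. Of the WT calls 4319 were tested in KO, and 98.4% had the same sign. The 2372 genes called in both genotypes, 53.8% of the WT calls and 83.0% of the KO calls, all had the same sign. Prox1 differed by 3.42 ± 0.12 in KO, Zbtb20 by 2.43 ± 0.23, Rorb by -2.08 ± 0.14 and Syt6 by -2.94 ± 0.13 on the log2 scale. In KO the upper layer genes gave 11 calls in prefrontal cortex and 2 in hippocampus. The hippocampal regulators gave 13 in hippocampus and 0 in prefrontal cortex, and the choroid plexus genes 6 in hippocampus of 12 tested. Other lists gave other counts than in WT. Of 12 meningeal genes 7 were called higher in prefrontal cortex and 1 in hippocampus in KO (median -0.85, against 0.23 in WT). Blood genes gave 0 calls of 6 (median -0.21, against 0.63 in WT), and myelin genes 0 in hippocampus and 1 in prefrontal cortex. Microglial genes gave 3 of 12 in hippocampus, against 9 in WT, and retinoic acid genes 8 in prefrontal cortex and 0 in hippocampus, against 6 and 3. These differences between lists were not tested. A direct test of the difference between genotypes called 0 of 17623 genes (0.0%) with edgeR and 0 with DESeq2. In edgeR 544 genes had an unadjusted p under 0.05, fewer than the 5% of genes that chance alone would give. The absence of calls does not show that the contrasts were equal.

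**Figure D4:**
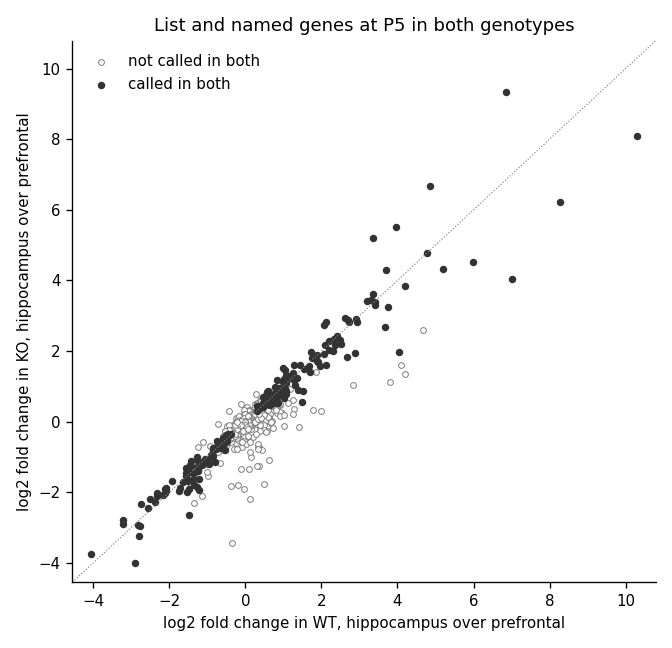
Log2 fold change between regions at P5 in KO (vertical) against WT (horizontal) for the 517 list and named genes tested in both. Filled points are the 196 called in both genotypes, all 196 with the same sign, and the dotted line marks equal values.

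The contrast at P5 was set beside those of older WT mice to see where it differed with age. At 6 weeks 4621 of 16577 genes (27.9%) were called between regions, and at 4 to 6 months 3814 of 16139 (23.6%). Of the genes called at both P5 and 6 weeks (2148, or 48.7% of the P5 calls and 46.5% of the 6-week calls), 1946 had the same sign and 202 the opposite one. With 4 to 6 months 1925 genes were shared (43.7% and 50.5%), 1754 of the same sign and 171 of the opposite one. The difference between the regional contrasts at P5 and at 6 weeks was itself called for 2210 of 18287 genes (12.1%), 1218 (6.66%) more positive at P5 and 992 (5.42%) more negative.

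Neurog2 and Neurod4, both proneural, were called between regions at P5 and not at 6 weeks. Neurog2, at 4.19 ± 0.23 at P5, stood at -0.10 ± 0.31 at 6 weeks, where its mean was 0.784 ± 0.199 CPM for hippocampus against 0.852 ± 0.183 CPM (SD, n = 4 each), and the change with age was called (edgeR adjusted p = 9.54e-08). Neurod4 went from 4.77 ± 0.30 to 0.30 ± 0.53 (edgeR adjusted p of the change 6.68e-05). Nts went from 3.41 ± 0.45 to 0.24 ± 0.50, and Crym from 3.30 ± 0.14 to 0.86 ± 0.16. Among Wnt genes Fzd1 was -0.30 ± 0.13 at 6 weeks, Lef1 -0.27 ± 0.13 and Rspo3 -0.27 ± 0.14, all with a called change with age. Of 54 Wnt pathway genes 11 were more positive at P5 and 3 more negative.

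Several markers of mature dentate granule cells differed less at P5 than at 6 weeks. Of 16 dentate genes 7 were more negative at P5 than at 6 weeks and 1 more positive. Dsp was 7.54 ± 0.27 at 6 weeks against 2.11 ± 0.28 at P5, with a mean of 49.3 ± 9.22 CPM in hippocampus at 6 weeks (SD, n = 4). Lct was 4.73 ± 0.23 against 1.96 ± 0.25, and C1ql2 6.88 ± 0.30 against 2.12 ± 0.47, where the P5 value rests in part on prefrontal counts under the floor. Tdo2, whose call higher in prefrontal cortex at P5 was lost without any of several single libraries, was 3.43 ± 0.30 at 6 weeks. Gabra5 widened from 0.46 ± 0.12 to 1.84 ± 0.11, Shisa6 from 2.34 ± 0.10 to 3.59 ± 0.12 and Tspan18 from 2.49 ± 0.11 to 3.63 ± 0.13. Prox1, Zbtb20 and Nr3c2 had no called change with age, standing at 3.53 ± 0.13, 2.20 ± 0.13 and 2.37 ± 0.11 at 6 weeks.

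Genes in both directions, Nts and Crym above among them, were named by their size at P5, which favours a smaller value at any other age. Among genes higher in prefrontal cortex, Pou3f2 was -1.41 ± 0.10 at 6 weeks, Rorb -1.16 ± 0.10 and Ptprk -0.81 ± 0.10, each with a called change. Sema3a went the other way, to -2.92 ± 0.14, and Cbln2 to -2.79 ± 0.16. The 4 genes with the smallest p for the change in each direction were Crym, Arpp19, Car10 and Rasgef1b, and Dbpht2, Tbc1d5, Tanc1 and Myo5b. Arpp19, a phosphatase inhibitor, was nearly equal at P5 (-0.18 ± 0.08) and higher in prefrontal cortex at 6 weeks (-1.76 ± 0.09), as was Rasgef1b, a guanine nucleotide exchange factor (-0.23 ± 0.08 and -2.60 ± 0.14). Car10, a carbonic anhydrase-related protein, turned from 0.55 ± 0.12 to -2.22 ± 0.17. Tbc1d5, a Rab GTPase-activating protein, was higher in prefrontal cortex at P5 (-1.46 ± 0.13) and not called at 6 weeks (0.20 ± 0.09). Tanc1, a synaptic scaffold, and Myo5b, a myosin motor, were higher in hippocampus at 6 weeks (2.68 ± 0.11 and 1.33 ± 0.10), from 0.59 ± 0.14 and -0.18 ± 0.08 at P5.

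**Figure D5:**
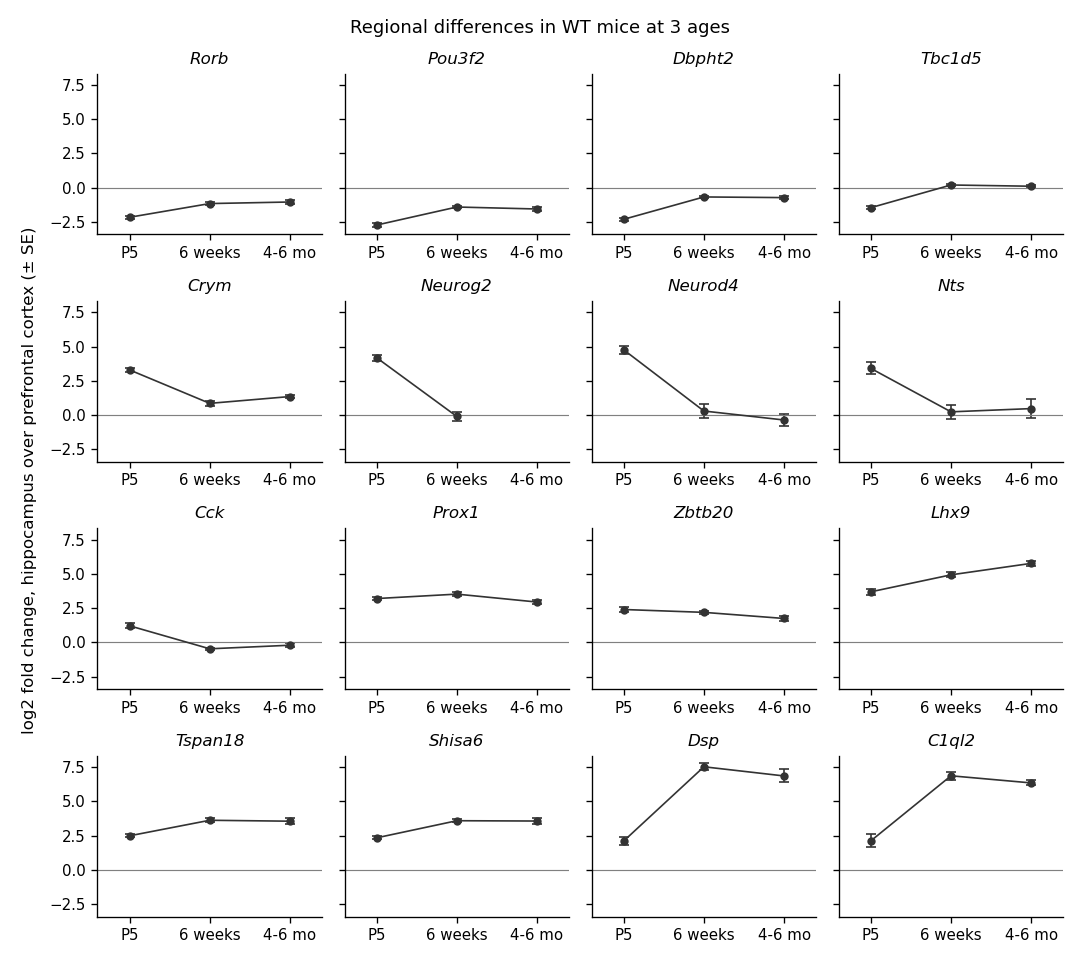
Log2 fold change (hippocampus over prefrontal cortex) with its SE for 16 genes in WT mice at P5, 6 weeks and 4 to 6 months, each point from the 4 libraries of each region. Neurog2 was not tested at the last age. Prox1 and Zbtb20 stay near their P5 value, Neurog2 and Neurod4 come down to about 0, and Dsp and C1ql2 go up.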

How the data were processed

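Poly(A) RNA of both tissues from male mice was made into libraries with the stranded Lexogen SENSE kit and read for 75 bases from a single end, per the labels. The deposited table holds whole-number counts per Ensembl gene for 54838 genes and 48 samples. The submitters' processing notes name bcl2fastq 2.20.0.422, STAR 2.4.0, HTSeq and GRCm38. The annotation release, strand setting and treatment of reads with several matches are not given in the sources used here. Gene positions are from GENCODE M21 (GRCm38).

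The 8 WT P5 samples entered a fit of edgeR 4.0.16, run in R 4.3.3 (quasi-likelihood, TMM, filterByExpr on the groups, 6 residual degrees of freedom), with Benjamini-Hochberg adjustment over all tested genes and a threshold of 0.05. The change with age used the 24 WT samples and the change with genotype the 16 P5 samples. SE is the log2 fold change divided by the root of F. CPM used TMM factors over all 48 samples. On simulated counts (16575 genes, 200 changed) 95% of changes of 1 log2 unit and 100% of changes of 2 were recovered, with 3.47% false calls. The changed genes were drawn only from genes with higher counts, so recovery at low counts was not measured. They were also far fewer than the genes called in the data.

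Members of the 36 lists (529 genes, 506 tested) and the lists themselves were chosen with earlier results of these data known. Besides list members, the genes named were taken from the 12 largest fold changes in each direction (called, no overlap, mean log2 CPM of at least 5, no predicted names), the 4 genes whose change with age had the smallest p in either direction, and Mpg. Not every gene that met these rules is reported here, so the named and plotted genes are not a full ranking. The chi-square per degree of freedom of replicate pairs was at least 11.6, so no pair of libraries was the same within sampling noise. Same-numbered hippocampus and prefrontal samples deviated together with correlations of 0.41, 0.27, -0.03 and 0.09, which does not pair them. The alternatives took size factors by median of ratios, dropped the filter, asked for 10 counts on average, used DESeq2 1.42.0, or had all 48 samples in a fit, a replicate block, or a sample left out in turn. Counting floors cover counting error only.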

Additional observations from a re-analysis of the deposited data

Results flagged for a closer look

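Among 242 sets of 4 values (the 83 genes described most fully, the summed lists, totals and mitochondrial shares in each tissue), 15 held a library far from the other 3, where chance flags about 1 set in 20, or 12.1. Of the 15, 8 were prefrontal replicate 1 and 2 prefrontal replicate 3. Prefrontal replicate 1 stood above the other 3 prefrontal libraries in Ttr (8.59 against 2.37 to 2.85 CPM), Foxp2 (73.1 against 22.8 to 31.4 CPM), Tac1 (57.7 against 10.7 to 14.7 CPM) and Six3 (21.8 against 0.111 to 0.864 CPM). The same library stood above the others in the summed striatal neurons list (1226 against 559 to 665 CPM) and the summed ependyma list (42.3 against 23.97 to 26.1 CPM). It stood below them in Tbr1 (280.5 against 408 to 427 CPM) and Reln (176 against 226 to 232 CPM). Prefrontal replicate 3 stood above the others in Lhx2 (95.5 against 51.9 to 58.5 CPM) and Dbpht2 (130.0 against 88.4 to 92.6 CPM). Hippocampus replicate 4 stood above the other 3 hippocampus libraries in C1ql2 (1.05 against 0.787 to 0.814 CPM). Hippocampus replicate 4 stood above the other 3 hippocampus libraries in Tac1 (26.96 against 21.4 to 21.9 CPM). Hippocampus replicate 4 stood below the other 3 hippocampus libraries in Gria1 (402 against 415 to 418 CPM). Hippocampus replicate 1 stood below the other 3 hippocampus libraries in Gabra5 (368 against 411 to 419 CPM). Hippocampus replicate 3 stood above the other 3 hippocampus libraries in the summed subplate list (188 against 159 to 161 CPM).

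The regional contrast at P5 differed from that at 6 weeks, by a test of the difference itself (edgeR, 24 WT samples), for 47 of these 83 genes, and 12.1% of all genes tested. The genes were chosen in part for their size at P5, so the count of 47 is a description. Values below are the log2 fold change at P5 minus that at 6 weeks. In genes called higher in hippocampus at both ages, with a smaller value at 6 weeks, it was 0.66 for Sema3e, 0.85 for Emx2, 1.03 for Nrp1, 1.22 for Fgfr1, 1.29 for Nrp2 and 1.72 for Hopx. It came to 2.41 for Crym and 4.86 for Ttr. In genes called higher in hippocampus at both ages, with a larger value at 6 weeks, it was -5.47 for Dsp, -4.80 for C1ql2, -2.81 for Lct, -2.13 for Tanc1, -2.01 for Trp73 and -1.42 for Gabra5. It was also -1.29 for Shisa6, -1.28 for Lhx9 and -1.17 for Tspan18. In genes called higher in prefrontal cortex at both ages, with a smaller value at 6 weeks, the difference was -2.24 for Cplx3, -1.67 for Dbpht2, -1.37 for Necab1, -1.36 for Pou3f2, -1.31 for Ptprk and -1.04 for Rorb. The rest of these gave -0.95 for Rprm and -0.92 for Mef2c. In genes called higher in prefrontal cortex at both ages, with a larger value at 6 weeks, it amounted to 0.77 for Sema3a and 1.27 for Cbln2. Genes called in opposite directions at the ages gave 0.73 for Reln, 1.65 for Cck and 2.73 for Car10. In genes called at P5 and not at 6 weeks the difference was -1.70 for Tbc1d5, -1.63 for Cyp26b1, 0.87 for Csf1r, 1.16 for Fzd7, 1.25 for Lef1 and 1.27 for Ndnf. Further values were 1.30 for Rspo3, 1.48 for Wnt2, 1.81 for Fzd1, 3.14 for Nts, 4.25 for Neurog2 and 4.43 for Neurod4. In genes called at 6 weeks and not at P5 it was -1.55 for Myo5b, -0.82 for Bcl11b, 1.54 for Arpp19, 2.33 for Rasgef1b and 2.49 for Tac1.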

How the results depend on the processing

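For WT P5 the called genes numbered 4377 to 4894 under the 6 alternatives and 3385 to 4729 with 1 sample left out, 4729 being without prefrontal replicate 1 and 3385 without prefrontal replicate 2. Asking for at least a doubling gave 1434. In KO at P5, all 48 samples in the fit gave 4581 in place of 2859, and leaving samples out 2033 to 3851. At 6 weeks the range with a sample left out was 3795 to 4949, at 4 to 6 months 3026 to 3939 and for the change with age 1774 to 2484. The test between genotypes gave 2 calls with no filter, 1 with all 48 samples and 0 to 1 with a sample left out. A replicate block in the fit gave counts of 4891 for WT P5, 2200 for KO P5, 4589 at 6 weeks, 3193 at 4 to 6 months, 2303 for the change with age and 0 between genotypes. Same-numbered samples did not all deviate together, and 2 of 4 hippocampus samples correlated best with their own number. Of 270 called list and named genes, 55 lost their call under some alternative. Without prefrontal replicate 1 the sign changed for Nkx2-1, Rarb, Rxrg, Six3 and Tac1. With a sample left out, Nkx2-1 ranged from -1.10 to 1.55, Rarb from -1.38 to 0.68, Rxrg from -0.87 to 1.48, Six3 from -1.56 to 2.77 and Tac1 from -0.26 to 0.94, and the cause was not tested. Fits other than leaving out a sample moved some list counts by over 1.5 times: layer 5 in hippocampus to 3 (no filter), GABA-A receptors in hippocampus to 4 (no filter), olfactory bulb and septum in prefrontal cortex to 5 (no filter), endothelium in hippocampus to 4 (replicate block), and, with all 48 samples, blood to 2 and immediate early genes to 1. Genes with few counts in a tissue, such as Wnt8b and Spink8, have levels under the floor there and no fold change is given.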
